A study of Musca domestica with 6 samples.

Results

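LOC105262473 and LOC101897835 are the 2 genes, of 14227 in the deposited table of housefly (Musca domestica) genes, whose description there is putative ATP-dependent RNA helicase me31b. They were chosen by gene identifier, and the choice rested on measured values: LOC105262473 was among the genes with the smallest p for dsMdCht9 against dsGFP and is marked as significant in the authors' deposited table, and LOC101897835 was added because it carries the same description. Their differences between the groups are therefore given as a description, with no test. The study compared whole bodies of larvae in the second instar (instar 2) collected 24 h after they received, by injection, double-stranded RNA directed at the chitinase gene MdCht9 (dsMdCht9) with larvae that received double-stranded RNA directed at GFP (dsGFP), a control sequence absent from the fly, with 3 libraries in each group. All larvae were thus injected with double-stranded RNA, and the labels name no strain, no uninjected group and no pooling of larvae. The labels also do not say whether replicates were separate sets of larvae, and p-values then reflect only the variation among these libraries, part of which may be technical. The series description calls the profiles retinal, whereas each sample is labelled whole body, and the sample labels were followed. No annotation in the table names MdCht9, so the level of the targeted transcript was not checked here.

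Me31b of Drosophila is a DEAD-box RNA helicase, known as DDX6 in mammals and Dhh1 in yeast. It sits in cytoplasmic processing bodies, where it holds messenger RNA in a translationally silent state and links the CCR4-NOT deadenylase to the decapping enzymes. In the Drosophila ovary it works with trailer hitch and cup, a protein that binds the cap-binding factor eIF4E, to keep maternal messenger RNA silent during transport, and it also acts in microRNA-mediated repression.

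The shared description hides a large difference in the evidence behind it. LOC101897835 matched its me31b protein with an alignment score of 2185 in the general protein database and 813 in UniProt (E-value 0.0 in both), and its domain call in the authors' deposited table was DEAD, the helicase domain, which 40 genes of the table carry. LOC105262473 reached a score of 223 against that same housefly protein (E-value 3e-19) and 52 against me31b in UniProt (E-value 2e-07). These scores are 10.2% and 6.40% of those of LOC101897835. Its domain call was not a helicase domain but DUF2975, a bacterial family of unknown function, which 3 genes of the table carry. Of the 13128 protein-coding genes with a protein score, 151 (1.15%) scored at or below LOC105262473, whereas 57.8% scored at or below LOC101897835. These scores were not scaled by protein length, with which they grow, so the ranks reflect length as well as closeness of match. The annotation of LOC101897835 is that of a full helicase, and LOC105262473 is better called by its identifier than a copy of me31b, since it carries the name and the gene ontology terms of LOC101897835 on a partial match.

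**Figure D1:**
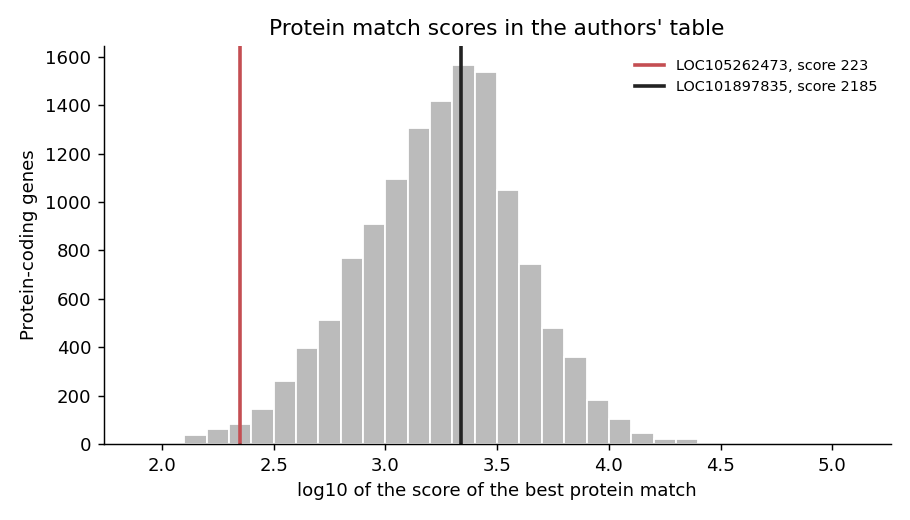
Histogram of the score of the best protein match (x axis, log10 of the score) over the 13128 protein-coding genes that have one (y axis, number of genes), from the authors' table. LOC101897835, at a score of 2185, lies in the middle of the distribution, and LOC105262473, at 223, lies in its low tail.

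At the nucleotide level the best match of LOC105262473 was the messenger RNA of LOC101897835 itself, with a score of 344 and an E-value of 5e-179, against a score of 1284 for LOC101897835. The 2 genes therefore have a stretch of similar sequence that reads could match in either. Nucleotide matches of this kind were not common: of 12991 protein-coding genes whose nucleotide match names a gene identifier, 517 (3.98%) matched the transcript of another gene. The descriptions, however, come from protein matches, and 1164 genes shared their best protein match with another gene. In all, 522 proteins were the best match of more than 1 gene, and 529 genes scored below the best gene of their protein. Of these, 36 stood at or below the 10.2% of LOC105262473.

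The 2 genes lie on different scaffolds, by the positions of the deposited table, whose assembly is not named. LOC105262473 spans 8044 bases on the plus strand of scaffold NW_004772694.1, positions 22336 to 30379. LOC101897835 spans 1414 bases on the plus strand of scaffold NW_004773278.1, positions 38 to 1451, so that it begins near the scaffold's first base, and it is the only gene of the table there. Scaffolds with 1 gene are frequent in this table, at 1561 of 3272. Exon and UTR boundaries were not used here, and the spans may include introns, so levels were not compared between the genes per length.

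The only gene beside LOC105262473 on its scaffold is LOC105262474, a long non-coding RNA that begins 24748 bases downstream on the same strand. Its description is borrowed too: its best nucleotide match is the transcript of LOC101898679, which encodes the nuclear pore protein Nup155. For replicates 1, 2 and 3, it was counted 6, 4 and 5 times in dsMdCht9 against 2, 1 and 0 times in dsGFP. It was too sparse for the filter on low counts and was not tested. In all it had 15 reads against 3, a ratio at equal depth of 5.23 with a 95% counting interval of 1.48 to 28.2. That interval pools the libraries of a group and leaves out variation between them. Without the filter, edgeR gave an unadjusted p of 0.0405 and an adjusted p of 0.9997. Its dsMdCht9 counts all lay above its dsGFP counts, but at only 0 to 6 reads a library. Among the tested genes, which this one is not, 4.83% had groups without overlap in that direction.

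RefSeq's gene table of another assembly (Musca_domestica.polishedcontigs.V.1.1) holds the symbols of 12237 of the 14227 genes of the deposited table (86.0%), but not that of LOC101897835. Whether LOC101897835 is there under another symbol was not checked. That RefSeq table holds LOC105262473 as a protein-coding gene and does not name its contig. The nearest entries listed around it that are also in the deposited table are LOC101898679 and LOC101898382, a gene without an informative description, on one side, and LOC101896658, a subunit of the conserved oligomeric Golgi complex, and LOC101892462, which has no informative description, on the other. Their log2 fold changes (dsMdCht9 minus dsGFP) ± SE were 0.26 ± 0.14, 0.089 ± 0.25, 0.041 ± 0.18 and -0.18 ± 0.51, in that order, each with an edgeR adjusted p of 0.999. None of the 4 passed the test. The Nup155 gene LOC101898679 was between 48.5 and 56.3 CPM in dsMdCht9 and between 39.7 and 47.4 CPM in dsGFP. Its groups thus did not overlap, as was so, with dsMdCht9 higher, in 4.83% of all tested genes.

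Levels are given as CPM, read counts brought to a common library size after scaling by the trimmed mean of M-values (TMM), and libraries held 12876941 to 15439421 counted reads. LOC105262473 received 514, 207 and 391 reads in replicates 1, 2 and 3 of dsMdCht9, or 32.2, 16.1 and 28.8 CPM. In dsGFP replicates 1, 2 and 3 it had 107, 112 and 134 reads, or 7.71, 7.64 and 8.48 CPM. The dsGFP libraries were close to each other and every dsMdCht9 library lay above them, with replicate 2 the nearest at 2.03 times the dsGFP mean and replicates 1 and 3 at 4.05 and 3.63 times.

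The group means of LOC105262473 were 25.7 ± 8.47 CPM (SD, n = 3) in dsMdCht9 and 7.94 ± 0.464 CPM (SD, n = 3) in dsGFP, a fitted log2 fold change of 1.69 ± 0.27 (SE), or 3.24-fold. The authors' deposited table gives 3.22-fold for the same counts. Of the 10644 genes tested, 28 had a higher log2 fold change, and in 13 of those the groups did not overlap either. Over the whole table the groups did not overlap, with dsMdCht9 higher, in 4.83% of genes. No gene of the table passed an adjusted p of 0.05 in edgeR (0%), and 381 (3.58%) had an unadjusted p below 0.05. DESeq2 called 14 (0.132%). With replicate number as a block, edgeR again called 0, with 888 (8.34%) below an unadjusted 0.05, and DESeq2 called 88 (0.827%). The SD of LOC105262473 over the 3 libraries was 5.84% of the mean in dsGFP, below the 9.22% that counting error alone gives at this depth, and 32.9% in dsMdCht9, where counting error gives 5.19%. The difference in spread was not tested.

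LOC101897835 received 2022, 1380 and 1854 reads in replicates 1, 2 and 3 of dsMdCht9, or 127, 108 and 137 CPM. In dsGFP replicates 1, 2 and 3 it had 1448, 1654 and 1927 reads, or 104, 113 and 122 CPM. The groups overlapped, and dsMdCht9 replicate 2 lay below 2 of the 3 dsGFP libraries. The means were 124 ± 14.8 CPM (SD, n = 3) in dsMdCht9 and 113 ± 8.75 CPM (SD, n = 3) in dsGFP, a log2 fold change of 0.13 ± 0.16 (SE), or 1.09-fold, which 3083 of the tested genes exceeded. With 1 library left out it moved by over 1.5 times, to 0.058 ± 0.19 without dsMdCht9 replicate 3, 0.075 ± 0.19 without dsGFP replicate 1 and 0.22 ± 0.17 without dsMdCht9 replicate 2. Scaled by library size alone it was 0.25 ± 0.21.

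**Figure D2:**
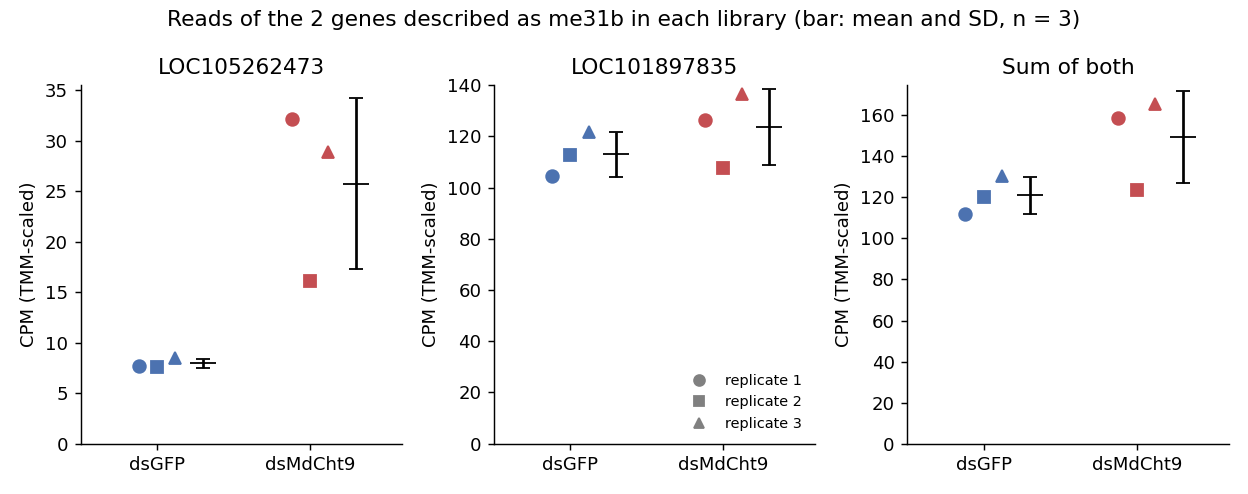
CPM (y axis, TMM-scaled, starting at 0) of LOC105262473, LOC101897835 and their sum in each dsGFP (blue) and dsMdCht9 (red) library, with the replicate number as the symbol and the mean and SD of each group in black. LOC105262473 lies between 7.64 and 8.48 CPM in dsGFP and between 16.1 and 32.2 CPM in dsMdCht9, while the groups overlap for LOC101897835.

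Because the genes share sequence, reads of one may have been counted for the other, and how the authors treated reads that match several places is not given in the sources used here. The mean of LOC105262473 was 17.8 CPM higher in dsMdCht9, and the mean of LOC101897835 was 10.6 CPM higher. Their sum was 159, 124 and 166 CPM in dsMdCht9 replicates 1, 2 and 3 and 112, 120.4 and 130.4 CPM in dsGFP replicates 1, 2 and 3. The sum was thus 28.4 CPM higher in dsMdCht9, with a log2 fold change of 0.30 ± 0.17 (SE), and the groups overlapped, since dsMdCht9 replicate 2 lay below dsGFP replicate 3. Within each replicate number the sum was higher in dsMdCht9, and with the replicate block its log2 fold change was 0.30 ± 0.14.

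Within dsMdCht9, replicate 2 was the lowest library for both genes, and within dsGFP, replicate 3 was the highest for both. The order of the remaining libraries differed between the genes. With reads alone it cannot be told apart whether LOC105262473 gained reads of its own transcript or reads of LOC101897835 that came to be assigned to it, and this was not tested.

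The share of LOC105262473 in the reads of both genes was 20.3%, 13.0% and 17.4% in dsMdCht9 replicates 1, 2 and 3, with exact 95% binomial intervals of 18.7% to 21.9%, 11.4% to 14.8% and 15.9% to 19.0%. In dsGFP replicates 1, 2 and 3 it was 6.88%, 6.34% and 6.50%, with intervals of 5.67% to 8.25%, 5.25% to 7.58% and 5.48% to 7.65%. These intervals cover counting error only. In dsGFP each interval holds the shares of the other two libraries, so the spread there was no larger than counting error, and LOC101897835 had 13.5 to 14.8 reads for each read of LOC105262473. In dsMdCht9 the interval of replicate 2 lies below those of replicates 1 and 3, and there were 3.93 to 6.67 reads of LOC101897835 for each read of LOC105262473.

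**Figure D3:**
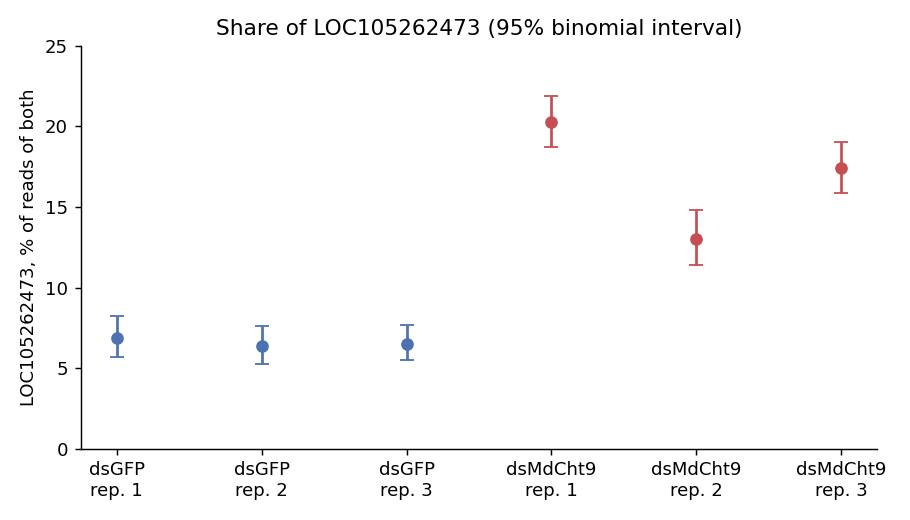
Reads of LOC105262473 as a percentage of the reads of both genes (y axis) in each library, with exact 95% binomial intervals as bars. The dsGFP libraries lie between 6.34% and 6.88% with overlapping intervals, and the dsMdCht9 libraries lie between 13.0% and 20.3%.

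The mean share was 16.9% ± 3.64 (SD, n = 3) in dsMdCht9 and 6.57% ± 0.277 (SD, n = 3) in dsGFP, 10.3 percentage points apart. For scale, 215 pairs of tested genes share their best protein match with each other and with no other gene. The share of the lower-scoring gene did not overlap between the groups in 13.5% of these pairs. It moved by at least as many points as here in 16 pairs, 7 of which also had no overlap, the me31b pair included. A shift in points depends on the starting share, for which the pairs were not matched. They were also not chosen for a shared nucleotide stretch. Both genes had log2 fold changes of the same sign in 141 of the pairs and of opposite sign in 74.

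Genes known to act with me31b, genes of neighbouring and other RNA pathways and other RNA helicases were listed by their descriptions as the me31b pathway list. The list is thus wider than the partners of me31b. Of its 130 genes, 116 passed the filter on low counts. None of the 116 passed an adjusted p of 0.05 in edgeR, against 0% of all genes, and DESeq2 called none of them either. Only 2 genes had an unadjusted p below 0.05, both higher in dsMdCht9 (1.72%, against 1.97% of all genes in that direction), and 0 were lower (1.61% of all genes). Groups did not overlap in 4 genes with dsMdCht9 higher (3.45%, against 4.83% of all genes) and in 0 genes with dsMdCht9 lower (3.38% of all genes). These shares were near or below the background. Log2 fold changes were positive in 68 of the 116 (58.6%, against 49.5% of all genes), with a median of 0.048, beside -0.0033 over all tested genes.

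No gene of the decapping group passed the test. The group, listed by description, holds mRNA-decapping enzyme 1B but no gene described as the catalytic decapping enzyme or as PAT1. LSM14, the orthologue of trailer hitch (LOC101900251), was at 189 ± 8.33 CPM in dsMdCht9 and 188 ± 14.5 CPM in dsGFP. EDC4, a scaffold of the decapping complex (LOC101901593), was at 61.1 ± 5.14 and 55.2 ± 3.23 CPM, and XRN1, the exonuclease that degrades decapped messenger RNA (LOC101894071), was at 62.2 ± 10.1 and 55.1 ± 2.12 CPM. Of the 11 genes of this group tested, 7 had positive and 4 negative log2 fold changes, between -0.49 and 0.25. The lowest was that of LSm2 (LOC101889940), a subunit of the LSm rings of RNA decay and splicing, at 2.95 ± 1.55 CPM in dsMdCht9 and 4.18 ± 1.27 CPM in dsGFP (-0.49 ± 0.43 on the log2 scale).

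Among the deadenylation factors, which shorten the poly(A) tail, 7 of 10 log2 fold changes were positive and none passed the test. CNOT1, the scaffold of the CCR4-NOT complex to which DDX6 binds in mammals (LOC101900513), was at 348 ± 41.6 CPM in dsMdCht9 and 352 ± 10.9 CPM in dsGFP. The deadenylase PAN2 (LOC101890975) differed by 0.056 ± 0.16 on the log2 scale, and a PAN3-like gene (LOC101895891), the regulatory subunit, by -0.11 ± 0.22. Another PAN3-like gene (LOC101895716), at only 0.909 CPM in dsMdCht9 and 0.554 CPM in dsGFP, differed by 0.69 ± 0.50, the highest value of this group.

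Among the translational repressors and stored messenger RNA factors the groups did not overlap in 1 of 18 tested genes (5.56%, near the 4.83% of all genes). That gene was cup, the eIF4E-binding repressor (LOC101887229), at 30.6, 21.2 and 28.2 CPM in dsMdCht9 replicates 1, 2 and 3 and at 17.3, 15.4 and 13.1 CPM in dsGFP replicates 1, 2 and 3. Every dsMdCht9 library lay above every dsGFP library, and replicate 2 was the lowest of the dsMdCht9 group. Cup is named here for its unadjusted p in the contrast that also chose LOC105262473. That both genes separate the groups therefore follows from how they were picked. The means were 26.7 ± 4.90 and 15.3 ± 2.11 CPM, a log2 fold change of 0.81 ± 0.20, which did not pass the test over all genes (edgeR adjusted p = 0.999, unadjusted p = 0.00467). With the replicate block the edgeR adjusted p of cup was 0.392, and DESeq2 gave 0.335 without the block and 0.102 with it. Its log2 fold change stayed between 0.68 and 0.95 under the scalings and left-out libraries tried.

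Of the 27 genes in this group of repressors and stored messenger RNA factors, 18 were tested, 12 with positive and 6 with negative log2 fold changes. The most abundant were the poly(A)-binding protein (LOC101900954) at 2192 ± 150.5 CPM in dsMdCht9 and 2095 ± 48.0 CPM in dsGFP, caprin (LOC101891152), an RNA-binding protein, at 483 ± 20.3 and 453 ± 67.2 CPM, and eIF4E (LOC101895749), the cap-binding factor that cup holds, at 288 ± 84.4 and 258 ± 54.4 CPM. Nanos, both genes described as oskar and 2 pumilio-like fragments, maternal-RNA and germ plasm factors in Drosophila, were among the 9 genes too sparse to test.

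**Figure D4:**
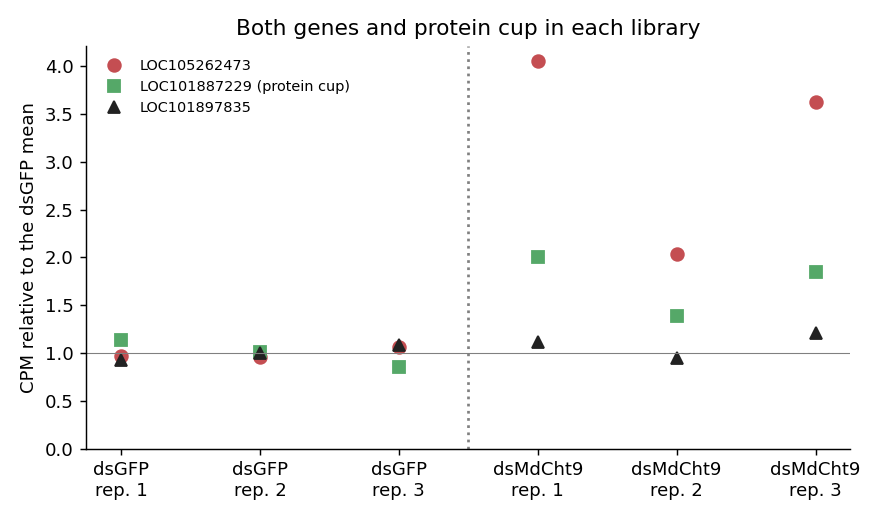
CPM of LOC105262473 (circles), cup (squares) and LOC101897835 (triangles) in each library, divided by the mean of the same gene over the dsGFP libraries (y axis, starting at 0). LOC105262473 lies at 4.05, 2.03 and 3.63 and cup at 2.01, 1.39 and 1.85 in dsMdCht9 replicates 1, 2 and 3, while LOC101897835 lies at 1.12, 0.951 and 1.21. LOC105262473 and cup were both picked for their difference between the groups.

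None of the 6 genes tested in the microRNA group passed the test. The group takes in genes that act in making microRNAs, and it holds no gene described as argonaute-1. Gawky (LOC101888780), the GW182 protein that brings CCR4-NOT to microRNA targets, was at 133 ± 5.31 CPM in dsMdCht9 and 138 ± 4.82 CPM in dsGFP. Exportin-5 (LOC101895229) differed by 0.056 ± 0.15 on the log2 scale, and the gene described as dcr-1 of highest level (LOC101893656) by 0.11 ± 0.41, with SDs of 149 CPM around 476 and 229 CPM around 440.3.

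The group of nonsense-mediated decay and exosome genes, which belong to other routes of RNA decay, was split evenly, with 10 positive and 10 negative log2 fold changes and none that passed. Upf1 (LOC101899363), the central helicase of nonsense-mediated decay, was at 92.9 ± 3.52 CPM in dsMdCht9 and 92.7 ± 3.48 CPM in dsGFP. SMG5 (LOC101894437) differed by 0.30 ± 0.19 and the kinase Smg1 (LOC101892874) by 0.12 ± 0.14 on the log2 scale.

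Of 54 further RNA helicases, 51 were tested, with 27 positive and 24 negative log2 fold changes, between -0.65 and 0.67. The groups did not overlap, with dsMdCht9 higher, in 3 of the 51 (5.88%, near the 4.83% of all genes). A gene described as Dbp80 (LOC101900579), a DEAD-box helicase, was at 24.3 ± 1.03 CPM in dsMdCht9 and 18.2 ± 2.38 CPM in dsGFP. Its log2 fold change of 0.42 ± 0.16 did not pass (edgeR adjusted p = 0.999). The groups overlapped for another gene described as Dbp80 (LOC101901447) and a Dbp80-like gene (LOC101888077), at 0.21 ± 0.22 and -0.044 ± 0.15. The other 2 without overlap, the genes described as TDRD12 (LOC101888684) and DHX33 (LOC101892262), differed by 0.22 ± 0.14 and 0.16 ± 0.15. eIF4A (LOC101900015), the translation initiation helicase, was at 1387 ± 73.8 and 1419 ± 121 CPM, p62 (LOC101887833) at 451 ± 38.9 and 430.5 ± 12.9 CPM, and the gene described as dbp2 (LOC101895252) differed by -0.14 ± 0.27. LOC101897835 lay within the range of all 51. LOC105262473 lay above it, but that gene was chosen from this same contrast, so its place there is only a description.

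**Figure D5:**
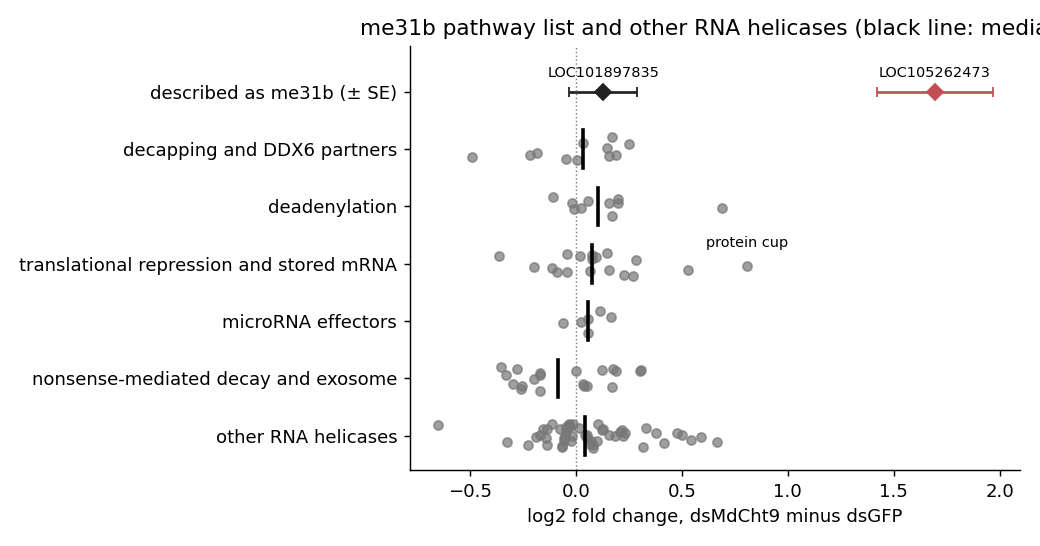
Log2 fold change (x axis, dsMdCht9 minus dsGFP) of the 116 tested genes listed by role (grey points, with the median of each group as a black line) and of both genes described as me31b (diamonds with SE). The listed genes lie between -0.65 and 0.81, where cup is the highest, and LOC105262473 lies at 1.69.

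Me31b is abundant in the germ line of Drosophila, and whole larvae hold gonads. In bulk samples, a different number of cells of a type cannot be told apart from a different RNA level per cell. Of 14 germ line markers listed, 10 were tested, 4 with positive and 6 with negative log2 fold changes between -0.10 and 0.12, and none passed the test. Their summed level was 363 to 425 CPM in dsMdCht9 and 381 to 435 CPM in dsGFP. Tudor (LOC101896118), a scaffold of germ granules and the most abundant of them, was at -0.10 ± 0.18 on the log2 scale (0.011 when scaled by library size alone), vasa (LOC101887752), the germ line helicase, at 0.055 ± 0.22 and piwi (LOC101900202), which binds small RNA in the germ line, at -0.0019 ± 0.15. The untested genes were oskar (LOC101890691 and LOC105262235), nanos (LOC101901787) and a maelstrom-like gene (LOC101896412), at 1 to 21 reads over all 6 libraries, and no marker was at 0 in every library. Markers of gut, fat body, muscle, cuticle, neurons and haemocytes were all present in these whole-body libraries, by word matches of their descriptions, which also take in some genes of other roles such as protease inhibitors.

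The genes whose profiles over the 6 libraries were most like that of LOC105262473 were LOC105261563, which has no informative description, LOC101895807, related to spitz, which in Drosophila activates the EGF receptor, and LOC101900671, transmembrane protein 18. The measure was the root mean square difference of log2 CPM, each gene centred on its own mean, and it was 0.22, 0.25 and 0.25 for these genes against a median of 0.91 over all tested genes. The value was 0.47 for cup, where 36 other genes lay closer, and 0.78 for LOC101897835, where 1543 lay closer. LOC105262473 has a wide range, 2.06 on the log2 scale, so its nearest genes share its separation of the groups by construction. The genes most like LOC101897835 were LOC101897326, without an informative description, LOC101897430, alpha/beta hydrolase domain-containing protein 17B, and LOC101894280, lamin-B receptor, at 0.031, 0.035 and 0.035 against a median of 0.30. That gene's own range was 0.39, so these are mainly genes that varied as little.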

How the data were processed

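RNA of 6 whole-larva samples was sequenced, from 3 µg of RNA each per the labels' protocols. The authors' deposited table holds raw read counts per gene, a normalized mean signal, the ratio of the groups, its log2 value, raw and adjusted p-values, and the score and E-value of each gene's best database matches, per the file headers. The submitters' processing notes list the tools HTSeq 0.6.0, HISAT2 2.1.0 and StringTie 1.3.2d without their roles. Genome build, strand setting and handling of multiply matching reads (not given in the sources used here) bear directly on genes that share sequence. Match scores were compared only within a database.

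Groups and replicate numbers came from the titles. Counts were analysed in R 4.3.3 with edgeR 4.0.16: filterByExpr left 10644 of 14227 genes, libraries were scaled with TMM, and all 6 entered a two-sided quasi-likelihood test with group as the only term and Benjamini-Hochberg adjustment over all genes (threshold 0.05). The log2 CPM used a prior count of 2. DESeq2 1.42.0, limma-voom (limma 3.58.1), other scalings, no filter, a replicate block and left-out libraries were alternatives. The fitting was tested on simulated data. No library was a copy of another (chi-square of at least 33.6 per degree of freedom). Both samples numbered 3 stood apart on the first principal component, which held 49.3% of the variance. The labels do not state pairing, so the main test left it out, with the replicate block as an alternative. Deviations of same-numbered samples from their group means correlated at 0.24, 0.39 and 0.65 for numbers 1, 2 and 3, all over the 0.1 set for pairing. By the same measure dsGFP replicate 1 resembled dsMdCht9 number 2 most. Deviations within a group cancel out, and both samples numbered 3 stood apart, so the correlations of numbers 1 and 2 cannot establish pairing. The blocked value stands beside a result where it changes a call.

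Named genes were, in each role of the list, the 3 of highest mean and those with an unadjusted p under 0.05, with the neighbours and the genes of most similar profile. Genes added after their values were seen were LSm2, TDRD12, DHX33, the further genes described as Dbp80 or PAN3-like, and the neighbours taken from RefSeq. So were the 3 tested germ line markers of highest mean and the untested maternal and germ line genes. The members and lists were chosen with earlier results of these data known. The planned test of the level of one gene against the other needed a transcribed length and was not made, and the neighbour on the scaffold was too sparse for its planned test.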

Additional observations from a re-analysis of the deposited data

How the results depend on the processing

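The log2 fold change of LOC105262473 ranged from 1.50 to 1.94 over 12 alternatives, that of LOC101897835 from 0.058 to 0.25 and that of their sum from 0.23 to 0.43. The share of LOC105262473 stayed between 8.66 and 12.3 percentage points higher in dsMdCht9 over 7 alternatives. In all 43 of these the direction was kept and the value moved by less than the within-group SD pooled over both groups, which was 0.38, 0.15 and 0.18 on the log2 scale for LOC105262473, LOC101897835 and their sum and 2.58 percentage points for the share. This pooled SD of the share comes mainly from dsMdCht9, and the SD in dsGFP alone was 0.277 points, less than the largest shift. For LOC101897835 the pooled SD (0.15) exceeded the value itself in the main fit (0.13), so the criterion says little about that value. With the replicate block the log2 fold changes were 1.64 ± 0.22 and 0.13 ± 0.13 for LOC105262473 and LOC101897835, and without both samples numbered 3, an alternative chosen after seeing the data, they were 1.67 and 0.12. Without dsMdCht9 replicate 3 or dsGFP replicate 1 the value of LOC101897835 was 0.058 or 0.075, and without dsMdCht9 replicate 2 it was 0.22. When only library size was scaled for, the median over all genes became 0.12 and the value of LOC101897835 0.25. Over the whole table edgeR called 0 genes in every setting, with 229 to 704 at an unadjusted p under 0.05 when 1 library was left out and 888 with the replicate block, while DESeq2 called 14 and, with the replicate block (also added after seeing the data), 88. No gene of the me31b pathway list was called in any of these settings, and the replicate block in edgeR changed no call. The neighbouring gene had 0 to 6 reads a library, which limits its ratio.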
